A study of Lupinus albus with 12 samples.

Results

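The comparison of 20 min of sucrose with the control asks which genes of the white lupin root had changed at the last of 3 short exposure times. White lupin (*Lupinus albus* cv. Amiga) seedlings, all wild type, were grown hydroponically in Hoagland solution, and root sections that included the tip were harvested for cDNA sequencing on Oxford Nanopore flow cells. The 2 groups were roots exposed for 20 min to 10 mM sucrose added to the solution, and control roots harvested at 0 min without added sucrose. Each group held 3 libraries, so that 6 of the 12 libraries of the series were compared. Of 23427 genes with a deposited value, the 16352 genes that reached 1 or more in 3 or more of the 6 libraries were chosen and tested, and the other 7075 were not. Libraries with the same replicate number were run on the same flow cell, 1 flow cell per replication. The labels describe several plants per replicate and other text a single one, and *p*-values measure the spread between these libraries. No roots kept for 20 min without sucrose are described, and sucrose and elapsed time cannot be told apart.

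Sucrose made in the leaves feeds the root and is also known as a long-distance signal that root cells read beside hormones. Under phosphorus or iron shortage, white lupin forms cluster roots, dense groups of short lateral rootlets that release organic acids and phosphatases, and added sucrose is known to favour them. Genes of rapid hormone responses, cell wall loosening and transcriptional control are those that early responses of growing roots are known to draw on.

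The deposited values are whole numbers that carry the name CPM but sum to between 303115 and 356992 in the 20 min libraries and between 184071 and 407780 in the control libraries. The number of reads behind a value is unknown. Values are given below as deposited, replicate 1 first, then 2 and 3, and a 0 is reported as a listed value only. For tests they were divided by a size factor per library (0.701 to 1.28 over the 12 libraries), which left a median log2 FC of all genes of 0.05 against 0.28 without this scaling. The log2 FC is the difference between 20 min and control in mean log2(scaled value + 1). On the first principal component of the 6 libraries (39.7% of the variation) the libraries of flow cell 3 scored 83.2 at 20 min and 79.1 in the control, and the other 4 between -53.4 and -30.7. On the second (26.6%) the same pair lay apart, at -51.9 and 41.5. Genes with names picked as root markers were present in both groups, and whether the names are particular to root was not tested. Those with CASP or Casparian strip names, CASP-like proteins included, took 0.0860% to 0.0990% of a library at 20 min and 0.0657% to 0.200% in the control. Genes with dirigent names took 0.490% to 0.844% at 20 min and 0.449% to 1.15% in the control. The median log2 FC was 0.11 for the Casparian strip names and -0.30 for the dirigent names. Genes with chlorophyll a-b binding and photosystem names (106 genes, 90 of them above 0) took 0.130%, 0.127% and 0.902% at 20 min, against 0.144%, 0.359% and 0.379% in the control, and none of the 75 photosystem and light-harvesting genes tested was called.

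After 20 min in sucrose, 63 genes (0.385% of those tested) were up-regulated and 33 (0.202%) were down-regulated. A gene was called when its log2 FC was 1.5 or more in size and its *p*-value, before adjustment, was 0.05 or lower (limma, two-sided). Below, nominally significant means that the *p*-value met this limit, whatever the size of the log2 FC. The largest log2 FC was that of a codeine 3-O-demethylase-named gene, 5.67. Levels were mostly low, as among all genes: the median of the mean scaled value was 3.48 for up-regulated and 5.99 for down-regulated genes, against 3.22 for all genes tested. An average of 20 or more was reached by 6 (9.52%) and 5 (15.2%) of them, against 14.3% of all genes tested. In 45 of the 63 up-regulated genes no control library was above 3, and in 20 of the 33 down-regulated genes no 20 min library was. Scaled values of the 2 groups did not overlap for 50 up-regulated and 25 down-regulated genes. Among all genes tested, the 3 libraries at 20 min lay above the 3 control libraries for 621 genes (3.8%) and below them for 414 (2.53%). Called genes were picked from these same libraries, so a higher share among them follows largely from the choice.

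The evidence for single genes was limited. Nominal significance was found for 534 genes (3.27%), 382 higher (2.34%) and 152 lower (0.93%). A *p*-value limit of 0.05 passes on average a share of 0.05 of genes that do not differ, and the share found was lower. Of the 534, 237 (44.4%) had no value above 3 in any of the 6 libraries, against 32.6% of all genes tested. After Benjamini-Hochberg adjustment over all genes, 1 gene (0.00612%) stayed at or below 0.05 in limma, and the next lowest adjusted *p*-value of any gene was 0.511. With flow cell added to the model, 86 genes (0.526%) were up-regulated, 50 (0.306%) were down-regulated and 877 (5.36%) were nominally significant, and this fit kept all 63 and all 33 calls. Up-regulated genes numbered 105 without 20 min replicate 1, 189 without control replicate 1 and 157 without control replicate 3. Down-regulated genes numbered 62 without 20 min replicate 1, 51 without 20 min replicate 3 and 85 without control replicate 3. Without scaling there were 121 up- and 21 down-regulated genes, a share of 85.2% up-regulated in place of 65.6%. All 63 and 21 of the 33 calls were kept without scaling. With 5 added before the logarithm in place of 1, 5 of the 63 and 8 of the 33 calls were kept. Genes described below that lost their call in this way include Lalb_Chr13g0302081, Lalb_Chr07g0181311, Lalb_Chr12g0198241, Lalb_Chr16g0392421, Lalb_Chr17g0342451 and Lalb_Chr12g0202201.

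**Figure D1:**
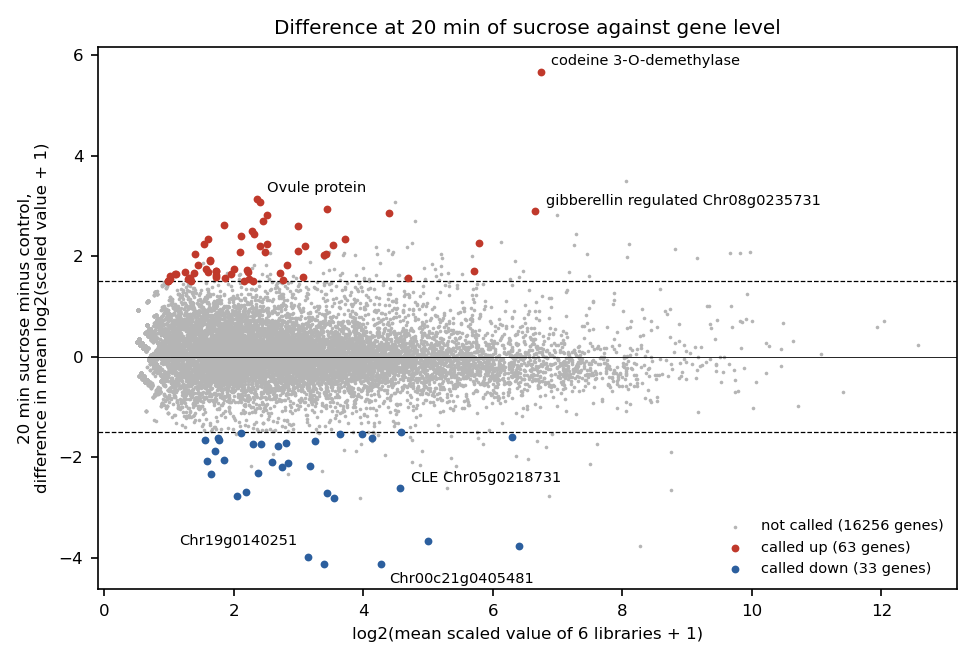
Each point is one of the 16352 genes tested. The horizontal axis gives log2(mean scaled value of the 6 libraries + 1) and the vertical axis the difference in mean log2(scaled value + 1), 20 min minus control, with dashed lines at 1.5 and -1.5. The 63 up-regulated (red) and 33 down-regulated (blue) genes lie beyond the dashed lines, and the codeine 3-O-demethylase-named gene stands highest at 5.67.

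Transcription factors and their partners were counted first: of the up-regulated genes, 12 of 63 (19.0%) carried a name with the word transcription, against 2 of 33 (6.06%) of the down-regulated and 9.99% of all genes tested. This grouping was chosen after the values had been seen, and the shares were not tested against each other. The gene with the smallest *p*-value in the group encodes an AP2-EREBP family factor, a class that includes the DNA-binding ethylene response factors. This gene, Lalb_Chr07g0181311 (chromosome 7, 2268155 to 2269227), had values of 7, 5 and 16 at 20 min and was listed at 0 in all 3 control libraries. Its difference was 3.08 (standard error 0.55, adjusted *p* = 0.511, limma), and it stayed between 2.59 and 3.47 with each of the 6 libraries left out in turn. A difference against a group at 0 depends on the added 1 and is not a fold, and the *p*-value can be too small because such a group adds no spread. This holds for 15 up-regulated genes with all control libraries at 0 and 6 down-regulated genes with all 20 min libraries at 0. A pair of further AP2-EREBP genes was up-regulated at higher control levels. Lalb_Chr12g0197461 had 8, 8 and 14 at 20 min, against 2, 1 and 3 in the control (log2 FC 1.67, standard error 0.58, call lost without 20 min replicate 3). Lalb_Chr04g0262881 had 8, 5 and 5 at 20 min, against 0, 1 and 4 in the control (log2 FC 1.503, standard error 0.65), and its call was lost without 4 of the 6 libraries in turn, with a lowest value of 0.94. In all, 3 of 99 AP2/ERF genes tested were up-regulated and 0 down-regulated, with a median log2 FC of 0.00, and 1 was down-regulated with flow cell in the model. The up-regulated share of all genes tested was 0.385%.

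Basic helix-loop-helix (bHLH) factors, which bind DNA as dimers, had 4 up-regulated members and 0 down-regulated ones among 126 tested, with a median log2 FC of 0.09. Over all genes tested, 0.385% were up-regulated. Lalb_Chr02g0158971 (chromosome 2, 16654006 to 16654802) had 13, 39 and 12 at 20 min, against 3, 0 and 2 in the control (log2 FC 2.93, standard error 0.59). Lalb_Chr17g0347051 had 5, 5 and 18 at 20 min, against 0, 0 and 1 in the control (log2 FC 2.70, standard error 0.60). In both, every library at 20 min lay above every control library, and both calls held with each library left out. With 5 added before the logarithm, Lalb_Chr02g0158971 kept its call and Lalb_Chr17g0347051 lost it. Lalb_Chr07g0177941 reached the highest level of the 4, with 34, 66 and 12 at 20 min, against 1, 0 and 30 in the control (log2 FC 2.87, standard error 0.97). It was higher at 20 min in flow cells 1 and 2 and lower in flow cell 3, and the call was lost without 20 min replicate 2 or control replicate 2, with values between 1.90 and 4.25 over the left-out libraries. Lalb_Chr06g0167811 was up-regulated at a low level, with 3, 6 and 4 at 20 min, against 0, 0 and 3 in the control (log2 FC 1.63, standard error 0.54), and lost its call without any of 3 libraries.

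Single members of other families were also up-regulated. Lalb_Chr18g0050421, a MYB-HB-like factor, had 1, 3 and 3 at 20 min and was listed at 0 in the control (difference 1.55, standard error 0.35). Its call was lost without 20 min replicate 2 or 3. Lalb_Chr04g0262921, a GATA zinc finger factor on chromosome 4 (15497934 to 15500313), had 4, 5 and 3 at 20 min, against 0, 0 and 2 in the control (log2 FC 1.69, standard error 0.41), and the call was lost without control replicate 1 or 2. The names of 3 more point to proteins that act with or against transcription factors. Lalb_Chr01g0000071, of the LisH family of interactors, had 2, 4 and 4 at 20 min, against 0, 0 and 1 in the control (log2 FC 1.65, standard error 0.37), and was not called without 20 min replicate 3. Lalb_Chr06g0162911, an Ovate family repressor, a family known in Arabidopsis and tomato for organ shape, had 1, 4 and 3 at 20 min, against 0 throughout the control (difference 1.65, standard error 0.45), a call lost without 20 min replicate 2 or 3. Another Ovate family gene, Lalb_Chr12g0196011, was down-regulated, with 5, 1 and 6 at 20 min, against 15, 12 and 7 in the control (log2 FC -1.68, standard error 0.73). Its call was lost without scaling and without any of 3 libraries, with a weakest value of -1.08. Lalb_Chr06g0163351, named as a TUBBY factor, owed its call to 1 library, with 2, 2 and 17 at 20 min, against 1, 0 and 1 in the control (log2 FC 1.68, standard error 0.64, and 0.77 without that library), and was also not called without control replicate 2.

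Other transcription factor families had few calls or none, and a contrast with the bHLH and AP2/ERF lists was not tested. Among 168 MYB genes, 1 was up-regulated and 1 down-regulated, against 0.385% and 0.202% of all genes tested. The down-regulated gene, Lalb_Chr19g0137001, had 3, 1 and 0 at 20 min, against 5, 9 and 2 in the control (log2 FC -1.73, standard error 0.58), and was not called without 20 min replicate 3 or control replicate 2. WRKY (53 tested), NAC (41), bZIP (74), C2H2 zinc finger (249) and GRAS and TCP genes (55) had 0 calls in either direction in limma. Nominal significance was found for 1 WRKY, 0 NAC, 4 bZIP, 12 C2H2 and 2 GRAS and TCP genes, against 3.27% of all genes tested. With flow cell in the model, 1 C2H2 gene was up-regulated, against 0.526% of all genes tested.

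**Figure D2:**
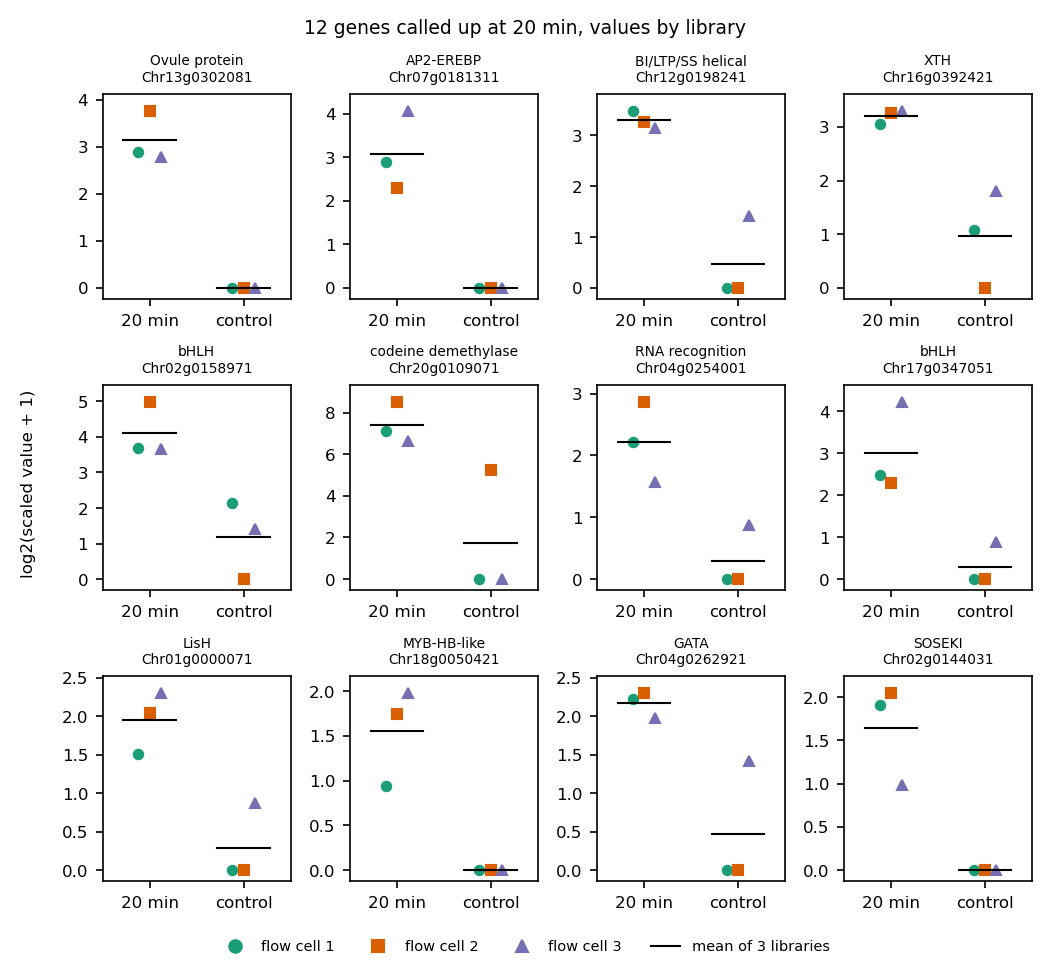
The 12 up-regulated genes with non-overlapping groups and the smallest *p*-values. Each panel is a gene, the vertical axis gives log2(scaled value + 1), points are libraries coloured by flow cell and the black bar is the mean of 3 libraries. In every panel the 3 points at 20 min (left) lie above the 3 control points (right), and 4 of the 12 genes are listed at 0 in all control libraries.

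Among hormone-related genes, up-regulation was found for 2 of 80 small auxin-up RNA (SAUR) genes, 2 of 21 gibberellin-named genes and 1 of 20 WAT1-related genes. Of all genes tested, 0.385% were up-regulated and 0.202% down-regulated. The lists were chosen with earlier results of these data known, and the shares were not tested. SAUR genes are known as rapid auxin response genes, some of which act in cell expansion. Lalb_Chr03g0025221 had 4, 6 and 4 at 20 min and was listed at 0 in the control (difference 2.34, standard error 0.59). Lalb_Chr08g0243451 had 10, 17 and 25 at 20 min, against 1, 0 and 19 in the control (log2 FC 2.23, standard error 0.99), so that its control level in flow cell 3 exceeded the 20 min levels of flow cells 1 and 2. Its call was lost without 4 of the 6 libraries in turn, with values between 1.37 and 3.41, and in a fit of only the 6 libraries. A further SAUR gene went the other way. Lalb_Chr02g0142271 was listed at 0 in all 20 min libraries, against 3, 2 and 8 in the control (difference -2.34, standard error 0.88), and was not called without control replicate 3. With flow cell in the model, 3 SAUR genes were up-regulated and 2 down-regulated. Of the 8 nominally significant SAUR genes, 4 were higher and 4 lower, and the list's median log2 FC was 0.15. Lalb_Chr25g0278531 had the highest level among those 8, with 29, 27 and 23 at 20 min, against 11, 2 and 19 in the control (log2 FC 1.35, standard error 0.47, nominally significant but not called). The WAT1-related gene, Lalb_Chr22g0353301, belongs to a family whose namesake in Arabidopsis exports auxin from the vacuole, and it had 1, 8 and 4 at 20 min, against 0, 0 and 1 in the control (log2 FC 1.74, standard error 0.58), a call lost without 20 min replicate 2. Aux/IAA, auxin response factor and auxin carrier genes had 0 calls among 20 tested, and 1 of them, an auxin efflux carrier (Lalb_Chr13g0299831), was nominally significant at values of 2, 2 and 1 at 20 min, against 0 in the control.

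Both up-regulated gibberellin-named genes encode small cysteine-rich gibberellin regulated proteins, and both were among the most abundant of the 63. Lalb_Chr08g0235731 had 196, 274 and 89 at 20 min, against 19, 2 and 113 in the control (log2 FC 2.90, standard error 0.87). Lalb_Chr02g0159351 had 93, 131 and 62 at 20 min, against 13, 3 and 70 in the control (log2 FC 2.27, standard error 0.70). In both genes the deposited value of flow cell 3 was lower at 20 min than in the control, and those of flow cells 1 and 2 were higher. After scaling, Lalb_Chr08g0235731 stayed lower in flow cell 3 and Lalb_Chr02g0159351 was higher in all 3. With each library left out, Lalb_Chr08g0235731 kept its call at values between 1.70 and 4.02, whereas Lalb_Chr02g0159351 was 1.42 and not called without control replicate 2. The list's median log2 FC was -0.17, and 0.11 without scaling. Ethylene synthesis and signalling genes (16 tested) had 0 calls and 0 nominally significant genes in limma. The GO term for the ethylene-activated signaling pathway (37 tested) had 0 calls, 1 nominally significant gene and a median log2 FC of -0.04, and 1 member was down-regulated with flow cell in the model. Cytokinin (30 tested) and jasmonate genes (28 tested) also had 0 calls, with 0 and 1 nominally significant genes. Of all genes tested, 0.587% were called in either direction and 3.27% were nominally significant. With flow cell in the model 0.306% of all genes were down-regulated. Counts of 0 in lists of this size therefore say little about a response.

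Among genes for signalling peptides, single CLE genes were called in each direction. CLE peptides are short secreted ligands that act through leucine-rich repeat receptor kinases in meristems and vascular tissue. Lalb_Chr21g0308071, a CLE family gene on chromosome 21 (2071147 to 2072006), had 2, 4 and 5 at 20 min and was listed at 0 in the control (difference 2.03, standard error 0.54). Lalb_Chr05g0218731, a CLE-related gene on chromosome 5 (4476976 to 4477515), had 4, 9 and 2 at 20 min, against 17, 9 and 110 in the control (log2 FC -2.62, standard error 0.84). Its deposited values met at 9 in flow cell 2, its scaled values did not overlap, and the call held with each library left out but not without both libraries of flow cell 3. Among the 25 CLE and RALF genes tested these were the only calls, against 0.385% up- and 0.202% down-regulated of all genes tested. With flow cell in the model 3 were down-regulated, against 0.306% of all genes tested. A RALF gene, of a peptide family that raises the pH of the cell wall, came close to the threshold: Lalb_Chr02g0148131 had 6, 6 and 5 at 20 min, against 0, 2 and 2 in the control (log2 FC 1.47, standard error 0.47, nominally significant but not called). Lalb_Chr03g0039781, annotated only as encoded peptide, was up-regulated with 6, 12 and 9 at 20 min, against 2, 0 and 2 in the control (log2 FC 2.08, standard error 0.66).

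Genes of the cell wall included enzymes and proteins of wall loosening. Of 109 genes with the GO term cell wall organization, 3 were up-regulated and 0 down-regulated, against 0.385% and 0.202% of all genes tested. With nominal significance 9 were higher and 3 lower (2.34% and 0.93% of all genes), and the median log2 FC was 0.19. The 3 up-regulated genes were a xyloglucan endotransglucosylase/hydrolase (XTH), an enzyme that cuts and rejoins xyloglucan chains, and both called expansins, proteins that loosen the wall. The XTH gene Lalb_Chr16g0392421 (chromosome 16, 14226212 to 14228261) had 8, 11 and 9 at 20 min, against 1, 0 and 3 in the control (log2 FC 2.24, standard error 0.45), with a log2 FC between 1.75 and 2.66 when each library was left out. The expansin Lalb_Chr03g0033521 had 4, 11 and 5 at 20 min, against 0, 0 and 3 in the control (log2 FC 2.08, standard error 0.58). The expansin Lalb_Chr01g0008521 had 4, 6 and 5 at 20 min, against 0, 0 and 5 in the control (log2 FC 1.64, standard error 0.63), and its call was lost without 4 of the 6 libraries in turn. The other 22 of 24 expansins and 24 of 25 XTH genes were not called. One of those expansins, Lalb_Chr10g0104571, had 7, 9 and 4 at 20 min, against 19, 5 and 15 in the control (log2 FC -1.03, standard error 0.47, nominally significant but not called).

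Pectinesterases, which remove methyl groups from pectin, had 1 gene in each direction. Lalb_Chr04g0253941 had 2, 3 and 2 at 20 min and 0 in the control (difference 1.60, standard error 0.55). Lalb_Chr04g0261231 (chromosome 4, 14271487 to 14276196) had 10, 9 and 4 at 20 min, against 11, 11 and 61 in the control (log2 FC -1.62, standard error 0.50). It was lower at 20 min in each flow cell after scaling. Without control replicate 3 or 20 min replicate 3 the gene was not called, with a weakest value of -1.02, nor was it called without scaling. The list of 61 pectin-modifying genes had a median log2 FC of 0.04, with 2 nominally significant genes higher and 3 lower. Of all genes tested, 2.34% were nominally significant and higher and 0.93% lower. Up-regulated were 0.385% of all genes and down-regulated 0.202%.

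Other proteins of the wall and apoplast were up-regulated as single genes. Lalb_Chr09g0331161, an arabinogalactan peptide, had 14, 2 and 9 at 20 min, against 0, 0 and 3 in the control (log2 FC 2.21, standard error 0.68). Lalb_Chr17g0349111, with the FAS1 domain of fasciclin-like proteins, had 10, 21 and 21 at 20 min, against 7, 1 and 2 in the control (log2 FC 2.02, standard error 0.85), and its call was lost without any of 4 libraries. A class III peroxidase gene, Lalb_Chr02g0143031, had 3, 3 and 3 at 20 min, against 1, 0 and 0 in the control (log2 FC 1.51, standard error 0.50). It was the only call and the only nominally significant gene among 45 peroxidases, whose median log2 FC was 0.34, and it was not called without any of 4 libraries or without both libraries of flow cell 3. Of all genes tested, 0.385% were up-regulated and 3.27% were nominally significant. A cupredoxin, a small copper protein, was more abundant: Lalb_Chr02g0149631 had 36, 62 and 26 at 20 min, against 9, 3 and 34 in the control (log2 FC 1.56, standard error 0.57). It was lower at 20 min in flow cell 3, and was not called without 20 min replicate 2 or control replicate 2, with a lowest value of 0.97.

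Lipid transfer and related helical proteins, small secreted proteins that bind lipids, had 3 up-regulated and 0 down-regulated genes among 52 tested, with a median log2 FC of 0.22. Over all genes tested the up-regulated share was 0.385%. With flow cell in the model, or without scaling, 5 genes of the list were up-regulated. Lalb_Chr12g0198241 (chromosome 12, 1310325 to 1312808) had 11, 11 and 8 at 20 min, against 0, 0 and 2 in the control (log2 FC 2.82, standard error 0.54, between 2.58 and 3.29 with each library left out). Lalb_Chr05g0225621 had 60, 106 and 74 at 20 min, against 17, 4 and 86 in the control (log2 FC 1.71, standard error 0.76), and all but 1 of the 6 left-out libraries ended its call, with values between 0.87 and 2.59. Lalb_Chr05g0225651 had 2, 4 and 3 at 20 min, against 0, 0 and 1 in the control (log2 FC 1.55, standard error 0.51), and was not called without any of 4 libraries. Both lie on chromosome 5 within 39919 bases and 3 gene models of each other. Genes of this family are similar in sequence, and reads may have been divided between them.

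The gene with the largest log2 FC of all, Lalb_Chr20g0109071 (chromosome 20, 963465 to 963691), carries the name codeine 3-O-demethylase, after a 2-oxoglutarate-dependent dioxygenase of opium poppy. It had 150, 465 and 101 at 20 min, against 0, 26 and 0 in the control (log2 FC 5.67, standard error 1.17, adjusted *p* = 0.845, limma). Leaving out each library gave values between 4.79 and 7.42, and the call also held under every other setting tried. None of the other 4 tested genes of this name was called.

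Several called genes belong to metabolism or nutrition. A glycosyltransferase gene, Lalb_Chr17g0342451, had 4, 6 and 14 at 20 min, against 1, 0 and 0 in the control (log2 FC 2.51, standard error 0.62), and all 6 left-out libraries kept the call. The call was lost with 5 added before the logarithm. Lalb_Chr20g0122831, annotated as the enzyme that makes the 4-carbon precursor of riboflavin, had 8, 10 and 1 at 20 min, against 1, 0 and 1 in the control (log2 FC 1.74, standard error 0.75), and lost its call without any of 4 libraries. Lalb_Chr15g0077671 for nicotianamine synthase, whose product binds iron and other metals, was down-regulated, with 1, 0 and 0 at 20 min, against 1, 5 and 3 in the control (log2 FC -1.66, standard error 0.57), and was not called without control replicate 2. These were the calls among 30 iron and riboflavin genes, of which 2 were up-regulated with flow cell in the model. Of all genes tested, 0.385% were up-regulated and 0.202% down-regulated, and 0.526% were up-regulated with flow cell in the model. Among 74 phosphate transporter, SPX and acid phosphatase genes the only call was the purple acid phosphatase Lalb_Chr08g0237131, with 5, 7 and 7 at 20 min, against 1, 3 and 0 in the control (log2 FC 1.55, standard error 0.67), which was lost without any of 5 libraries, with a lowest value of 0.97. Lalb_Chr08g0239161, of the chalcone isomerase family of flavonoid synthesis, had 2, 1 and 8 at 20 min and 0 in the control (difference 1.83, standard error 0.59), but 1.17 and not called without 20 min replicate 3.

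Genes that handle sucrose itself had 0 calls. Of all genes tested, 0.587% were called in either direction and 3.27% were nominally significant, so 0 calls in lists of this size say little. None of 27 sucrose and trehalose metabolism genes was nominally significant in limma, and the median log2 FC was 0.08. Of 51 sugar transporters and SWEETs, 1 was, and it was lower: the SWEET gene Lalb_Chr18g0060801, whose protein class moves sugars across membranes, had 7, 7 and 6 at 20 min, against 8, 8 and 17 in the control (log2 FC -0.84, standard error 0.35). The GO term response to sucrose was given to only 2 tested genes.

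Among the remaining leading genes, the smallest *p*-value of an up-regulated gene was that of Lalb_Chr13g0302081 (chromosome 13, 14648825 to 14649182), which carries only the name ovule protein. It had 7, 16 and 6 at 20 min and was listed at 0 in all control libraries (difference 3.14, standard error 0.53, adjusted *p* = 0.511). Lalb_Chr04g0254001, with an RNA recognition motif, had 4, 8 and 2 at 20 min, against 0, 0 and 1 in the control (log2 FC 1.92, standard error 0.41). Lalb_Chr02g0144031, a SOSEKI protein, a family known in Arabidopsis for polar placement in cells, had 3, 4 and 1 at 20 min and 0 in the control (difference 1.64, standard error 0.40), and its call was lost without 20 min replicate 2. Of the 63 up-regulated genes 15 (23.8%) were uncharacterized, against 18.4% of all genes tested. One of these, Lalb_Chr12g0197491 (14, 8 and 11 at 20 min, against 1, 1 and 5 in the control, log2 FC 1.82), starts 2757 bases from the end of the up-regulated AP2-EREBP gene Lalb_Chr12g0197461. The AP2-EREBP gene Lalb_Chr04g0262881 and the GATA gene Lalb_Chr04g0262921 also lie on a common stretch, 3 gene models apart.

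**Figure D3:**
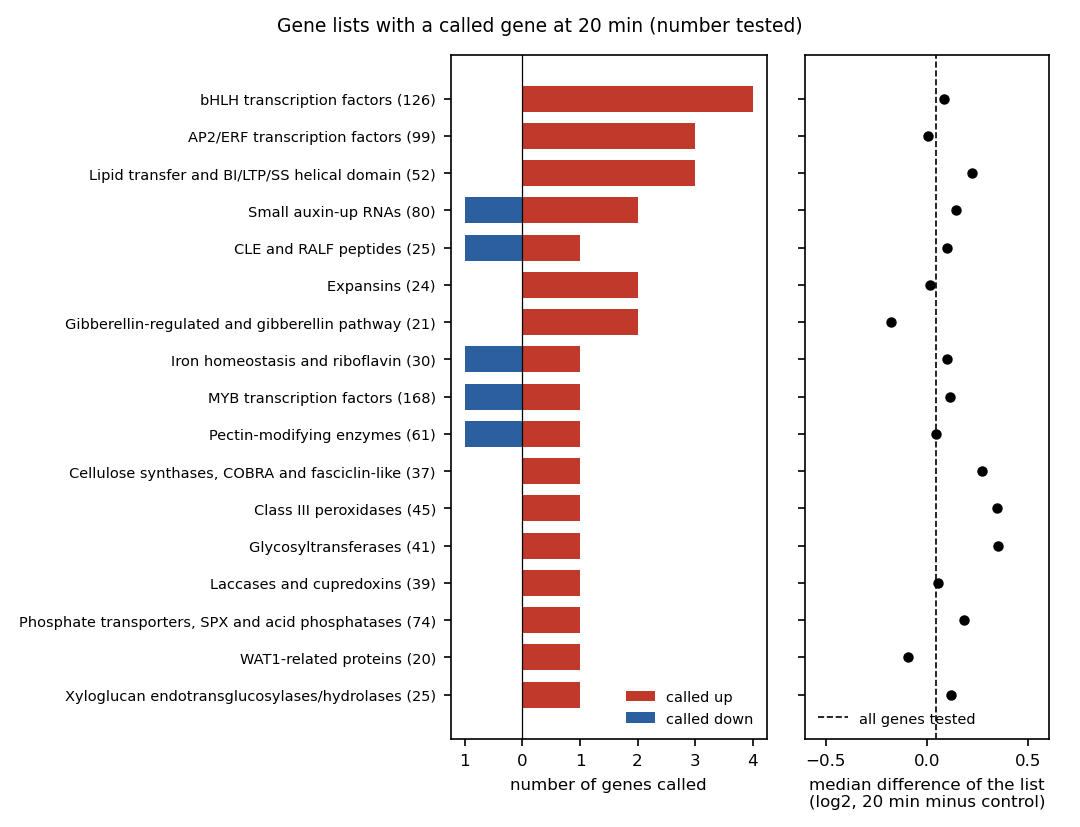
Lists of genes picked by protein name, with at least 1 called member and at least 15 tested genes. Left, the number of genes up-regulated (red, to the right of 0) and down-regulated (blue, to the left of 0) at 20 min, with the number tested in brackets. Right, the median log2 FC of each list, with a dashed line at the median of all genes tested (0.05). The bHLH list has the most calls, 4, and the SAUR, CLE and RALF, iron and riboflavin, MYB and pectin lists hold calls in both directions.

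Of the 33 down-regulated genes 18 (54.5%) were uncharacterized, against 18.4% of all genes tested, a difference that was not tested. The smallest *p*-value of the comparison was that of Lalb_Chr19g0140251 (chromosome 19, 18071071 to 18071357), listed at 0 in all 20 min libraries, against 11, 8 and 28 in the control, with a difference of -3.996 (standard error 0.31, adjusted *p* = 0.000555, limma). Its control libraries alone supply the spread, and with only the 6 libraries of this comparison in the fit 0 genes reached an adjusted *p*-value of 0.05 in limma, with 458 nominally significant. Lalb_Chr00c21g0405481, an uncharacterized gene on the mitochondrial sequence (83384 to 83706), had 5, 0 and 0 at 20 min, against 36, 9 and 62 in the control (log2 FC -4.14, standard error 0.72, adjusted *p* = 0.511). All left-out libraries kept the call, with values between -4.96 and -3.72. It overlaps another annotated gene, and the reads of both cannot be told apart by position alone. A second mitochondrial gene, Lalb_Chr00c24g0407111 for subunit 2 of cytochrome c oxidase, the last complex of the respiratory chain, had 2, 0 and 2 at 20 min, against 7, 30 and 6 in the control (log2 FC -2.71, standard error 1.20), but its call was lost without any of 5 libraries, and ncRNA genes overlap it.

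Lalb_Chr08g0242221 (chromosome 8, 14311601 to 14311908), uncharacterized, was listed at 0 at 20 min, against 7, 12 and 38 in the control (difference -4.12, standard error 0.96). Lalb_Chr12g0202201, named phosphodiesterase I, was also at 0 at 20 min, against 3, 2 and 18 in the control (difference -2.69, standard error 0.62), as was the uncharacterized Lalb_Chr21g0309711, against 2, 1 and 10 (difference -2.07, standard error 0.61). In these 3 genes the control library of flow cell 3 was the highest. The call of Lalb_Chr21g0309711 was lost without it, and the other 2 kept theirs under each left-out library. Other genes fell without reaching 0. Lalb_Chr08g0239761, uncharacterized, had 20, 15 and 6 at 20 min, against 37, 26 and 27 in the control (log2 FC -1.502, standard error 0.40), and Lalb_Chr07g0178511, with a DUF617 domain, had 2, 1 and 3 at 20 min, against 7, 10 and 6 in the control (log2 FC -1.79, standard error 0.48). The call of Lalb_Chr08g0239761 was lost without scaling and without any of 3 libraries, and that of Lalb_Chr07g0178511 without 20 min replicate 2 or control replicate 2.

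The most abundant down-regulated genes had wide spreads. Lalb_Chr03g0031051, uncharacterized, had 25, 55 and 0 at 20 min, against 198, 67 and 144 in the control (log2 FC -3.76, standard error 1.62), and was not called without any of 4 libraries (weakest value -2.09) or without scaling. Lalb_Chr07g0178731 had 44, 69 and 17 at 20 min, against 114, 129 and 54 in the control (log2 FC -1.60, standard error 0.72), also lost without scaling and without any of 4 libraries. Lalb_Chr01g0010791 had 0, 0 and 35 at 20 min, against 23, 18 and 120 in the control (log2 FC -3.67, standard error 1.52), and was not called without any of 3 libraries. Within each flow cell all 3 genes were lower at 20 min. The same was true of 32 of the 33 down-regulated genes, and 56 of the 63 up-regulated genes were higher in each flow cell, against 7.81% and 10.9% of all genes tested that were lower or higher in each. The calls were made from these same libraries, which favours a common direction, and these shares are no separate evidence.

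**Figure D4:**
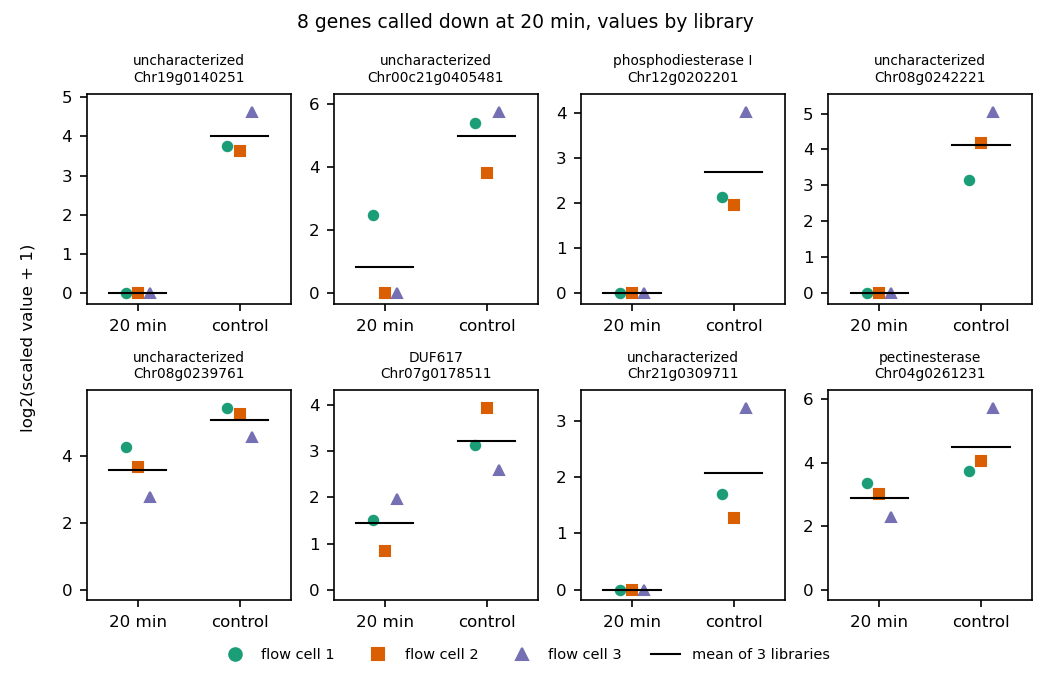
The 8 down-regulated genes with non-overlapping groups and the smallest *p*-values, plotted as log2(scaled value + 1) for each library, with colours for flow cells and a black bar at the mean of 3 libraries. In every panel the 3 points at 20 min (left) lie below the 3 control points (right). In 4 of the 8 genes all 20 min libraries are listed at 0.

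The large housekeeping lists stayed under the thresholds. Of 551 ribosomal protein genes 0 were called and 1 was nominally significant in limma, with a median log2 FC of -0.25. Histones and cyclins (109 tested) had 0 calls, 5 nominally significant genes and a median of -0.22. Without scaling these medians were 0.05 and 0.02, under the median of all genes of 0.28. With flow cell in the model, 2 ribosomal protein genes were down-regulated, against 0.306% of all genes tested. In the main fit 0.587% of all genes were called in either direction and 3.27% were nominally significant.

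The codeine 3-O-demethylase-named gene and a gibberellin regulated gene given above were also chosen for qRT-PCR in the study. Another gene of that assay, the lipid transfer protein gene Lalb_Chr05g0225671 on chromosome 5 (9149581 to 9150484), had 724, 982 and 1242 at 20 min, against 480, 429 and 493 in the control. Every 20 min library lay above every control library, but the log2 FC of 0.72 (standard error 0.31), nominally significant, did not reach the size for a call. The reference genes of that assay were not called. Lalb_Chr11g0072021 for histone H2A had 24, 42 and 17 at 20 min, against 25, 17 and 32 in the control (log2 FC -0.19, standard error 0.30, not nominally significant, and 0.11 without scaling), and Lalb_Chr08g0243601 for a proteasome endopeptidase complex had 2, 4 and 2 at 20 min, against 3, 3 and 3 (log2 FC -0.41, standard error 0.44, not nominally significant).

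Differences of at least 1.5 in size were not all called. They were found for 146 genes that were higher and 74 that were lower at 20 min, and 124 of these were not nominally significant. In 47 of the 124 the library of flow cell 3 was the highest in both groups, against 20.3% of all genes tested. An example is Lalb_Chr07g0178771 for early nodulin-93, with 43, 84 and 1391 at 20 min, against 4, 2 and 143 in the control (log2 FC 3.49, standard error 1.68). Within each flow cell it was higher at 20 min. It was not nominally significant in the main fit, which had no term for flow cell. Likewise Lalb_Chr08g0231331, a hypoxia induced protein gene, had 44, 41 and 624 at 20 min, against 7, 2 and 82 in the control (log2 FC 2.82, standard error 1.68). The list of 31 hypoxia-related names had 0 calls and 2 nominally significant genes, both for cinnamyl-alcohol dehydrogenases, enzymes of lignin synthesis, and 3 of its genes were up-regulated with flow cell in the model. Of all genes tested, 0.587% were called and 3.27% nominally significant, and 0.526% were up-regulated with flow cell in the model. At the threshold itself, Lalb_Chr04g0262881 was just inside with a log2 FC of 1.503 and the photosystem II gene Lalb_Chr11g0074321 just outside with 1.495. For lower genes, Lalb_Chr08g0239761 was just inside with -1.502 and the uncharacterized Lalb_Chr18g0053201 just outside with -1.496.

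Whether the changes at 20 min were also present earlier can be read from the 10 and 15 min libraries, which share the control. Of the 63 up-regulated genes, 28 were up-regulated at 10 min, 29 at 15 min, 24 at both and 30 at neither. Of the 33 down-regulated genes, 5, 7, 3 and 24 were. Of all genes tested, 65 (0.398%) rose and 18 (0.11%) fell at 10 min, and 75 (0.459%) rose and 32 (0.196%) fell at 15 min. Because all these comparisons use the same 3 control libraries, the counts are not independent, and the difference between times was tested directly. At 20 min against 10 min, 30 genes (0.183%) were higher and 12 (0.0734%) lower, and at 20 min against 15 min 26 (0.159%) were higher and 15 (0.0917%) lower. Among the 63 and 33 genes, 10 and 2 passed against 10 min, 7 and 4 against 15 min, and 5 and 1 against both. These genes were picked by their 20 min values, which both contrasts use again. A higher share among them than among all genes therefore follows in part from the choice and is no separate evidence. No adjusted *p*-value of a named gene was under 0.697 in either contrast (limma).

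The genes that differed between 20 min and the earlier times included some of the leading ones. Lalb_Chr13g0302081 was listed at 0, 4 and 0 at 10 min and at 0 in all 15 min libraries, and the difference of 20 min was 2.41 against 10 min and 3.14 against 15 min (standard error 0.53 for both), past the thresholds for a call in both. The AP2-EREBP gene Lalb_Chr07g0181311 had 0, 0 and 1 at 10 min. At 15 min it had 2, 0 and 1. Its difference at 20 min was 2.76 against 10 min and 2.14 against 15 min (standard error 0.55 for both), also past them. The mitochondrial gene Lalb_Chr00c21g0405481 had 21, 6 and 13 at 10 min and 42, 36 and 32 at 15 min, and the log2 FC of 20 min was -2.72 against 10 min and -4.46 against 15 min. At 10 min its log2 FC to the control was -1.42, not nominally significant. Several genes chosen after their values had been seen showed a like pattern against both times, among them the arabinogalactan peptide gene Lalb_Chr09g0331161, with 0, 0 and 0 at 10 min and 0, 0 and 2 at 15 min (log2 FC 2.81 and 2.32), and the encoded peptide gene Lalb_Chr03g0039781, with 3, 2 and 0 at 10 min and 0, 3 and 0 at 15 min (log2 FC 2.02 and 2.48).

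For other leading genes 20 min and the earlier times did not differ past the thresholds. Lalb_Chr19g0140251, the only gene to pass adjustment at 20 min, was listed at 0 in all 10 and 15 min libraries as well. Its difference to the control was -3.996 at 10 min and at 15 min, as at 20 min. Lalb_Chr20g0109071 had 39, 102 and 145 at 10 min and 46, 102 and 135 at 15 min, and the log2 FC of 20 min was 1.18 (standard error 1.17) against 10 min and 0.92 (standard error 1.17) against 15 min. Lalb_Chr12g0198241 had 14, 25 and 11 at 10 min and 17, 6 and 18 at 15 min, and Lalb_Chr16g0392421 had 12, 18 and 7 and then 7, 8 and 10. The log2 FC of 20 min against 10 and 15 min was -0.63 and -0.51 for Lalb_Chr12g0198241 and -0.30 and -0.06 for Lalb_Chr16g0392421, none nominally significant, which does not show that the levels were equal. The CLE-related gene Lalb_Chr05g0218731 had 16, 7 and 32 at 10 min and 4, 2 and 0 at 15 min, and its log2 FC of 20 min was -1.64 against 10 min and 0.86 against 15 min. The deposited values of the lipid transfer gene Lalb_Chr05g0225671 were higher at 10 min (1406, 1651 and 1373) than at 20 min in each flow cell (log2 FC of 20 min -0.63, not nominally significant).

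**Figure D5:**
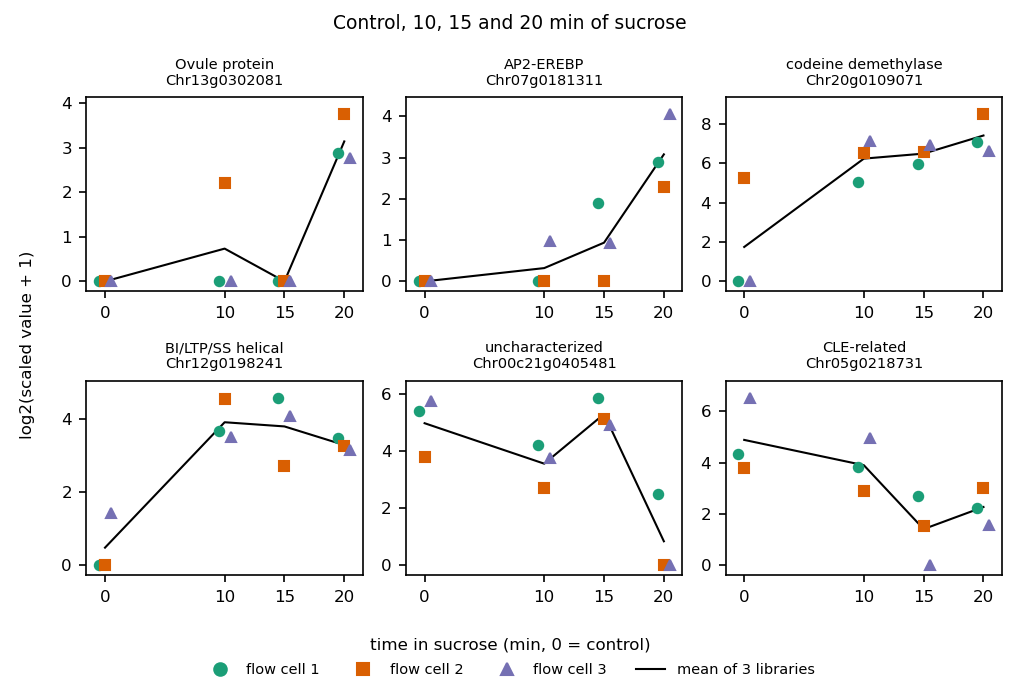
Values of 6 genes over time, with minutes in sucrose on the horizontal axis (0 is the control) and log2(scaled value + 1) on the vertical axis. Points are libraries coloured by flow cell and the black line joins the means of 3 libraries. The ovule protein and AP2-EREBP genes rise mainly at 20 min, the codeine 3-O-demethylase-named and lipid transfer genes are up at all 3 times, the mean of the mitochondrial gene is lowest at 20 min, and that of the CLE-related gene is lowest at 15 min.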

How the data were processed

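According to the study's methods, the authors basecalled the reads with Guppy, trimmed them with Pychopper, mapped them with Minimap2 to CNRS_Lalb_1.0, assembled transcripts with StringTie and counted genes with Salmon. The values they deposited carry the name CPM but are whole numbers (100% of values) with unequal sums per library, so the deposited values were used as a score of unknown scale, and no read depth or counting interval could be given. The authors' second table holds their own DESeq2 comparisons (means, fold changes, *p*-values) and was not used. Protein names and GO terms are those of the authors. Coordinates were read from the annotation of CNRS_Lalb_1.0, which held all 23427 identifiers.

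Values were divided by median-of-ratios size factors (from 8941 genes above 0 in all 12 libraries), and log2(scaled value + 1) was fitted for all 12 libraries in 4 groups with limma 3.58.1 (R 4.3.3, trended variance). The plan named a count test only if the values were counts, and limma took its place. Python 3.11.15 with pandas 2.3.3 was used for tables. An exact permutation test of 3 against 3 libraries cannot go under 0.1 and was not used. Replicate numbers pair libraries by flow cell according to the study's text. With each gene centred within its group, the median correlation between libraries was 0.296 within flow cell 1, 0.246 within flow cell 2 and 0.546 within flow cell 3. Between the 20 min and the control library alone it was 0.288, -0.00045 and 0.283. The main model had no block, and a model with it was an alternative, beside other scalings, added constants of 0.5 and 5, other filters, only the 6 libraries, and each library left out.

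Genes were named by rule: the 12 up- and 8 down-regulated genes with non-overlapping groups and the smallest *p*-values, the 6 of each direction with the highest mean, up to 3 called genes of each list, and the qRT-PCR genes of the study. Some named by a list are left out of the text. Other genes were chosen after their values had been seen: those near a threshold, with a large difference and no call, or nominally significant. The members and lists were chosen with earlier results of these data known. Gene lists were picked by words in names or GO terms and described by counts and medians without a test. No sequences are printed, because none were in the sources used here.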

Additional observations from a re-analysis of the deposited data

Results flagged for a closer look

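In 6 of the genes named by rule the change at 20 min differed from that at 10 or 15 min in a test of the difference itself (limma, past the same thresholds as a call). The genes were picked by their 20 min values, which this test uses again, and the choice favours a difference. Other called genes that passed are counted above and are not listed here. Adjusted over all genes, every one of these *p*-values was 0.697 or above. Lalb_Chr13g0302081 (ovule protein) differed by 2.41 from 10 min and by 3.14 from 15 min, and Lalb_Chr07g0181311 (AP2-EREBP) by 2.76 and 2.14. Lalb_Chr18g0050421 (MYB-HB-like), with 1, 3 and 3 at 20 min and 0 in all 15 min libraries, differed by 1.55 from 15 min. Lalb_Chr00c21g0405481 (mitochondrial, uncharacterized) differed by -2.72 from 10 min and by -4.46 from 15 min. Lalb_Chr21g0309711 (uncharacterized), at 0 at 20 min, against 2, 3 and 5 at 15 min, differed by -2.09. Lalb_Chr02g0142271 (SAUR), at 0 at 20 min, against 0, 4 and 12 at 15 min, differed by -1.93.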

How the results depend on the processing

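Most counts moved with the added constant, the filter and single libraries, and the cause was not tested. Of 63 up- and 33 down-regulated genes at 20 min, there were 121 and 21 without scaling, 196 and 63 with 0.5 added before the logarithm, 5 and 9 with 5 added, 26 and 16 with a value of at least 5 required in 3 libraries, 97 and 54 with only the 6 libraries and the replicate block, and 192 and 136 without the libraries of flow cell 3, a setting chosen after seeing the data. With each library left out in turn they ranged from 64 to 189 and from 38 to 85. With the replicate block in the fit of all 12 libraries, 50 were down-regulated and 877 were nominally significant, in place of 534, and no call of a named gene was lost. That count was 154 with the filter at 5, 1385 without flow cell 3, and 493 to 811 with a library left out. Genes at or under 0.05 after adjustment (limma) numbered 0 with the filter at 5 and with only the 6 libraries (458 nominally significant, and 508 with the block, also 0 after adjustment), 3 without flow cell 3, and 1 to 2 with a library left out (2 without control replicate 2), in place of 1. Without scaling the median log2 FC over all genes moved to 0.28, in place of 0.05. The 621 genes above and 414 below in all libraries became 182 and 204 with the filter at 5 and 3086 and 3519 without flow cell 3, the lower count became 53 without scaling, and the counts ranged over 1081 to 1700 and 763 to 2003 with a library left out. Of named genes, 2 and 1 were higher and lower than at 10 min, and 0 and 0 with 5 added. The 1 lower became 2 without flow cell 3 and 1 to 2 with a library left out. Against 15 min, 3 and 3 became 0 and 1 with 5 added, and the 3 lower became 1 with the filter at 5. Over the 51 named genes and all settings, 651 values kept their direction and their side of the thresholds, 141 lost the call and 3 turned: those of Lalb_Chr11g0072021 (histone H2A), 0.11 without scaling, 0.0276 without 20 min replicate 3 (from -0.44 with each library left out) and 0.0396 without flow cell 3. Of the 63 and 33 calls, 23 and 6 held with every single library left out, and 3 and 3 under every setting.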
